A study of Mus musculus with 6 samples.

Results

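The Slc25 family of mitochondrial carriers was followed across mouse marrow cells carrying an MN1 vector, marrow cells carrying an MN1VP16 vector, and marrow cells sorted for myeloid surface markers. Its members were all genes whose symbol starts with Slc25a and a number, on probe sets that the array's annotation ties to exactly 1 gene symbol. There were 44 such genes among 18193 measured genes. They were covered by 93 probe sets, and each gene was read from the one that was brightest on average over the 6 arrays. MN1 is a coregulator of transcription that gives rise to myeloid leukaemia when overexpressed in mouse marrow, and VP16 names an activator protein of herpes simplex virus. Per the labels, marrow of C57BL/6J mice given 150 mg/kg of 5-fluorouracil for 4 days was stimulated with cytokines for 48 hours, transduced with a gammaretroviral vector and transplanted into lethally irradiated syngeneic recipients. The MN1 group (n = 2 arrays) held GFP-positive marrow cells with pSF91-MN1-IRES-GFP, and the MN1VP16 group (n = 2) those with pSF91-MN1VP16-IRES-GFP, both sorted 4 weeks after transplantation. The Gr1Mac group (n = 2) was made up of marrow cells sorted as Gr1-positive and CD11b-positive. The labels give one growth and treatment text for all arrays but do not say that the Gr1Mac cells came from transplanted mice. They give neither the age of the mice nor whether the arrays of a group stand for different animals. The p-values measure the spread between these arrays, which in the MN1 and MN1VP16 groups may be technical alone.

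Slc25 proteins are embedded, with few exceptions, in the inner mitochondrial membrane, which is closed to most charged metabolites. Each carrier lets particular substrates across: ADP and ATP, phosphate, citrate and other carboxylates, amino acids, cofactors or iron. Through them mitochondria export ATP, take up iron and glycine for haem, and exchange one-carbon and citrate intermediates with the cytosol, which matters in marrow for dividing progenitors and for red cell precursors.

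All values are the authors' log2 RMA readings per probe set. RMA removes background, equalises the distributions of the arrays and combines the probes of each set, and it compresses the differences of dim genes. In bulk samples such as these, fewer cells of a type and less RNA per cell cannot be told apart. Readings of different genes come from different probes and are not compared with each other here. As a guide to background, Xist read at most 5.84 log2 units on the 3 arrays where it was low. A group mean at or under that level can be background alone. By this guide 9 members (Slc25a2, Slc25a18, Slc25a23, Slc25a27, Slc25a31, Slc25a34, Slc25a41, Slc25a48 and Slc25a54) were not above background in any group, and 35 were above it in at least 1. Slc25a21 and Slc25a43 were named on no single-gene probe set and were not analysed here.

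The arrays differed in more than the construct. Xist was high on both MN1 arrays and Gr1Mac array 1 and low on both MN1VP16 arrays and Gr1Mac array 2, a pattern of the sex of the cells that the labels do not give. The Y-linked gene Kdm5d read 3.11 on Gr1Mac array 1 and 7.37 on Gr1Mac array 2, so those arrays did not hold cells of one animal alone. By the bright control features of the array, the MN1 pair and MN1VP16 array 1 fell on one side and the remaining 3 arrays on the other. Itgam, which encodes CD11b, read 10.95 and 10.92 in Gr1Mac against 7.67 and 6.95 in MN1. Ly6g and Ly6c1, which encode the Gr1 antigens, were named on no single-gene probe set. Of 8 measured granulocyte and monocyte markers 6 were lower in MN1 than in Gr1Mac, and all 6 stem and progenitor markers were higher. Erythroid markers were higher in 8 of 10, mast cell, basophil and eosinophil markers in 3 of 5, and megakaryocyte markers in 1 of 4. Of 4 dendritic cell markers 1 was higher and 2 were lower, and of 3 B cell markers 1 was lower. Limma called 0 of 4 T and NK cell markers and 0 of 4 stromal and endothelial markers (0 and 1 at an unadjusted p under 0.05). The summed linear level of the granulocyte and monocyte markers was 16.48 and 15.98 log2 units in MN1 against 17.12 and 17.11 in Gr1Mac. That of the erythroid markers was 15.38 and 15.83 in MN1, 13.57 and 12.53 for the MN1VP16 pair and 12.15 and 11.43 in Gr1Mac. The globin gene Hba-a1 stayed under the background guide on every array. The part of these marker differences in the carrier differences was not tested.

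In MN1 cells compared with Gr1Mac cells, carriers of ADP/ATP, phosphate, ornithine, citrate, folate and nucleotides read higher, while Slc25a45 and the ATP-Mg/phosphate carrier Slc25a24 read lower. The widest difference was in Slc25a4, the ADP/ATP carrier best known from heart and muscle, at 8.0-fold. Limma, fitted across all genes with Benjamini-Hochberg adjustment and a threshold of 0.05, called 13 of 44 members, 11 higher and 2 lower, while 29.3% of all genes were called. That is 25% of members higher, where 17.3% of all genes were called higher, and 4.55% lower, where 12.0% of all genes were. The median difference of the members was 0.13 log2 units, and that of all genes -0.06. Among the 35 members above the background guide in at least 1 group the median was 0.44, but those members were kept by their level. In the fit without the dimmest 40% of genes, 12 of 35 members were called higher and 2 lower, against 27% and 18.3% of all genes. The medians there were 0.44 for the members and 0.08 for all genes. The MN1 arrays lay wholly above the Gr1Mac arrays in 20 members and wholly below in 13, against 30.9% and 35.8% of all genes.

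These calls were sensitive to single arrays. Fewer members were called higher without MN1 array 1, MN1 array 2 or Gr1Mac array 2, and fewer were called lower without either MN1 array. Of all genes, too, a smaller share was called in these directions in those fits. Of the 13 calls 6 (Slc25a1, Slc25a3, Slc25a4, Slc25a15, Slc25a45 and Slc25a53) held without each of the 6 arrays in turn. When the control feature sides entered the model as a block, 1 member, Slc25a3, was still called, and it was higher in MN1. In that fit 5.02% of all genes were called higher and 3.14% lower. That fit compares MN1 with Gr1Mac by way of the difference between the MN1VP16 arrays.

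**Figure D1:**
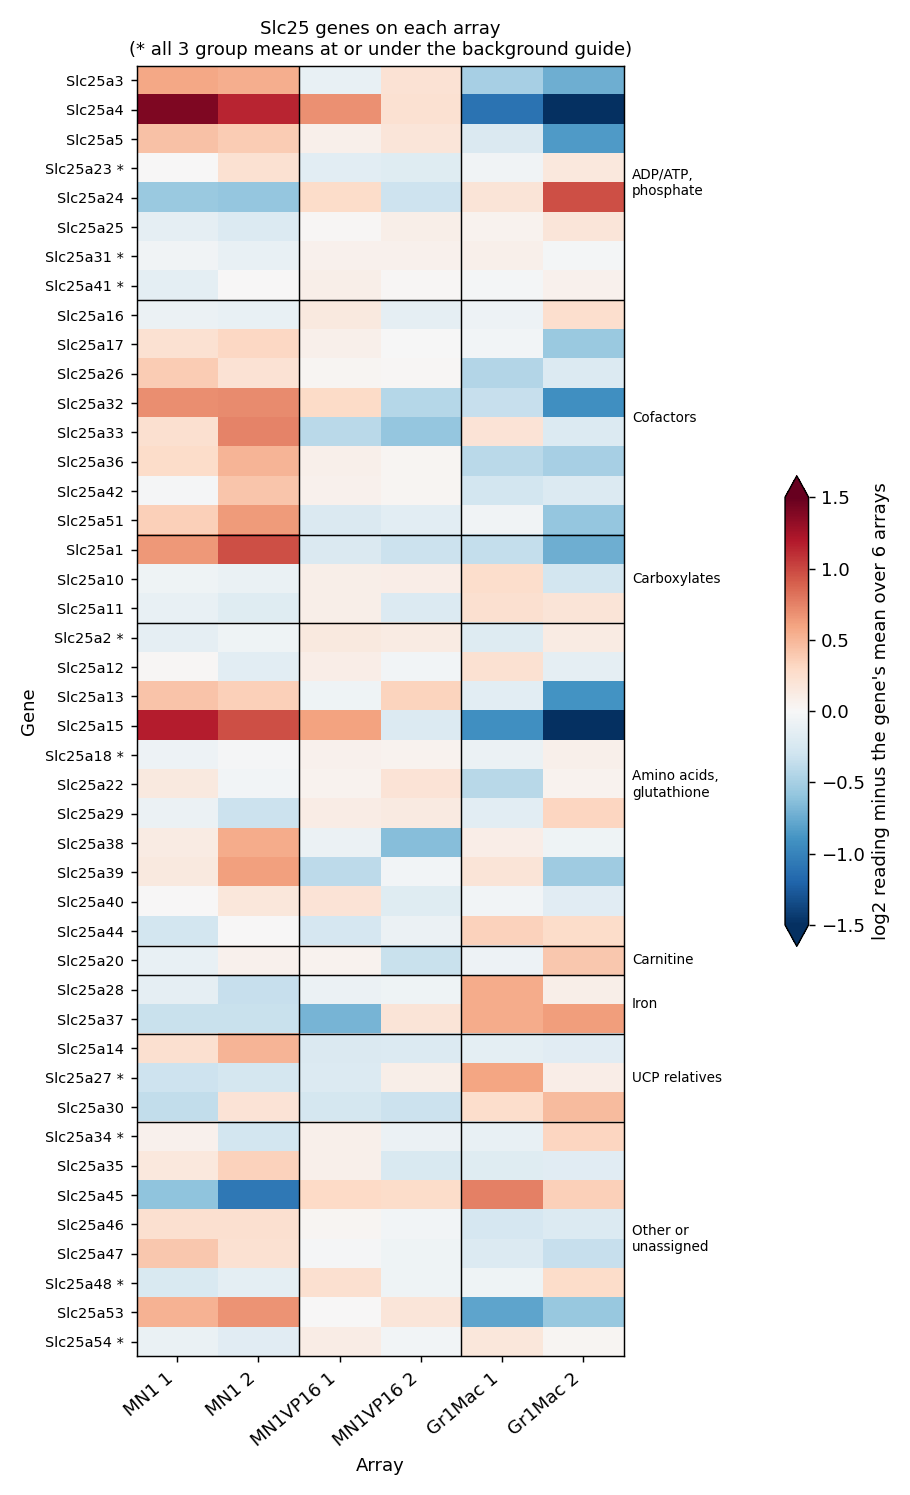
Heat map of the 44 Slc25 genes (rows, grouped by what they carry) on the 6 arrays (columns); colour is the log2 reading minus the gene's own mean over the 6 arrays, and colours stop at the ends of the bar, which Slc25a4 and Slc25a15 pass on Gr1Mac array 2. Slc25a4 and Slc25a15 run from red in MN1 to blue in Gr1Mac, Slc25a24 and Slc25a45 the other way, and the 9 starred genes are at or under the background guide in all 3 groups.

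Among the carriers of ADP/ATP and phosphate 3 of 8 rose in MN1 over Gr1Mac (37.5%, against 17.3% of all genes). In this group 1 fell (12.5%, against 12.0% of all genes). Slc25a4 read 11.77 and 11.52 on the MN1 arrays, 11.06 and 10.61 on those of MN1VP16 and 9.27 and 8.02 on those of Gr1Mac. No group overlapped another, and Gr1Mac array 2 was well under Gr1Mac array 1. Its group means were 11.64 ± 0.18 (SD, n = 2) in MN1 and 8.64 ± 0.88 in Gr1Mac, a difference of 3.0 ± 0.42 log2 units (SE), or 8.0-fold with a 95% interval from 3.96 to 16.2 (limma adjusted p = 0.00432). Of its 3 other probe sets, 2 showed 2.78 and 2.80 log2 units in the same direction, and the third read at most 3.66 on every array. Slc25a5, the ADP/ATP carrier of dividing cells, read 13.54 and 13.48 on the MN1 arrays, 13.18 and 13.28 on those of MN1VP16 and 12.89 and 12.25 on those of Gr1Mac. Its groups did not overlap either, but their means lay closer together, 1.92-fold apart between MN1 and Gr1Mac (limma adjusted p = 0.0290). All 7 other probe sets of Slc25a5 were higher in MN1, by 0.67 to 1.56 log2 units. The call on Slc25a5 was lost without MN1 array 1 (limma adjusted p = 0.129), MN1 array 2 (0.126) or Gr1Mac array 2 (0.0540). Slc25a4 and Slc25a5 are close relatives, and probe sets whose names end in _x_at, _s_at or _a_at can bind more than 1 transcript, as may hold for the ones used here.

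**Figure D2:**
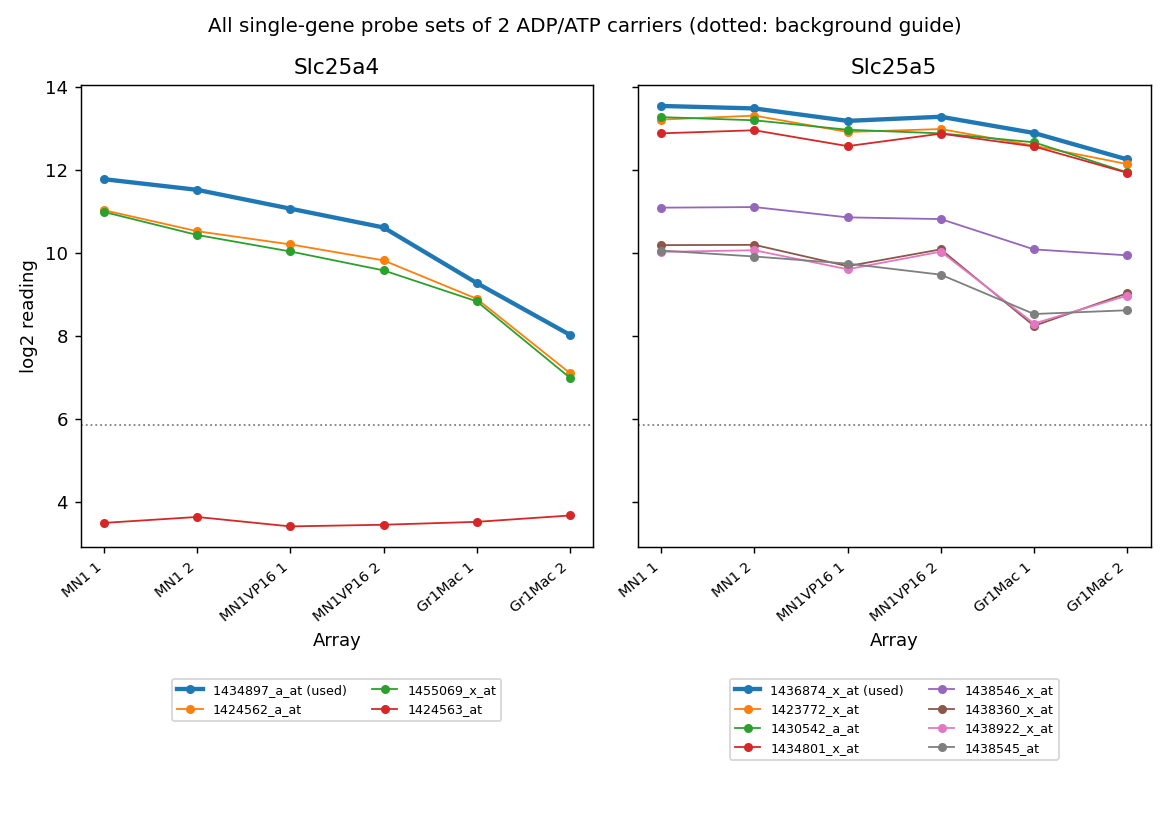
Log2 readings (vertical axis) of every single-gene probe set of Slc25a4 (left) and Slc25a5 (right) on the 6 arrays (horizontal axis); the thick line is the probe set used for the gene and the dotted line the background guide at 5.84. All 8 Slc25a5 probe sets and 3 of 4 Slc25a4 probe sets read higher on the MN1 arrays than on the Gr1Mac arrays, and the fourth Slc25a4 probe set stays near the bottom of the scale.

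Slc25a3 brings in the phosphate from which ATP is made. It read 13.42 and 13.39 on the MN1 arrays, 12.73 and 13.07 on those of MN1VP16 and 12.36 and 12.11 on those of Gr1Mac. The groups were in that order without overlap, with MN1 2.26-fold over Gr1Mac (95% interval 1.64 to 3.10, limma adjusted p = 0.00642). A second and dimmer probe set of the gene did not show this: it read 6.35 and 6.45 in MN1 and 6.29 and 7.01 in Gr1Mac. Slc25a24, which exchanges ATP-Mg for phosphate and thereby sets the size of the mitochondrial nucleotide pool, ran the other way. Its readings were 10.64 and 10.62 on the MN1 arrays, 11.47 and 10.89 on those of MN1VP16 and 11.39 and 12.17 on those of Gr1Mac. The MN1 arrays were the lowest, while MN1VP16 and Gr1Mac overlapped. The difference between MN1 and Gr1Mac was -1.15 ± 0.31 log2 units (SE; limma adjusted p = 0.0389), and its second probe set showed -1.55. That call was lost without MN1 array 1 (limma adjusted p = 0.138), MN1 array 2 (0.161) or Gr1Mac array 2 (0.133). Slc25a25, a calcium-regulated carrier of the same kind as Slc25a24, was 0.29 log2 units lower in MN1 (limma adjusted p = 0.219). Slc25a23, Slc25a31 and Slc25a41 were at the background guide or below it on these arrays.

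Among carriers of cofactors, vitamins and nucleotides 4 of 8 rose in MN1 over Gr1Mac (50%, against 17.3% of all genes). Slc25a32, the mitochondrial folate carrier, read 7.95 and 7.96 on the MN1 arrays, 7.55 and 6.83 on those of MN1VP16 and 6.91 and 6.34 on those of Gr1Mac. The MN1 arrays were highest, and one MN1VP16 array lay among the Gr1Mac readings. MN1 was 2.52-fold over Gr1Mac (95% interval 1.52 to 4.19, limma adjusted p = 0.0203), and a second probe set read 6.75 and 6.98 in MN1 and under the background guide in Gr1Mac. The call was lost without MN1 array 1 (limma adjusted p = 0.0877), MN1 array 2 (0.104) or Gr1Mac array 2 (0.0955). Slc25a36, a carrier of pyrimidine nucleotides, read 10.89 and 11.12 on the MN1 arrays, 10.69 and 10.64 on those of MN1VP16 and 10.21 and 10.11 on those of Gr1Mac. Here too the groups were stepped without overlap, with MN1 1.79-fold over Gr1Mac (limma adjusted p = 0.0118, and 0.0960 without MN1 array 2). Its second probe set above background differed by 0.20 log2 units.

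Slc25a51, which carries NAD into mitochondria, read 11.03 and 11.31 on the MN1 arrays, 10.46 and 10.52 on those of MN1VP16 and 10.62 and 10.09 on those of Gr1Mac. The MN1 arrays stood above the other groups, which overlapped. MN1 was 1.76-fold over Gr1Mac (limma adjusted p = 0.0401), and both other probe sets were higher in MN1 too. The carrier of S-adenosylmethionine, Slc25a26, read 7.07 and 6.90 on the MN1 arrays, 6.71 and 6.70 on those of MN1VP16 and 6.25 and 6.48 on those of Gr1Mac. It was 1.54-fold higher in MN1 than in Gr1Mac (limma adjusted p = 0.0361). Both calls were near the threshold. That on Slc25a51 was kept without Gr1Mac array 1 and lost without any other array (limma adjusted p from 0.0613 without an MN1VP16 array to 0.217 without MN1 array 2). That on Slc25a26 was kept without Gr1Mac array 2 and lost without any other array (from 0.0621 without an MN1VP16 array to 0.192 without MN1 array 1). The 4 members of the group that were not called in MN1 against Gr1Mac were Slc25a17, a peroxisomal carrier of coenzyme A and related nucleotides, at 0.57 log2 units (limma adjusted p = 0.0952), the pyrimidine nucleotide carrier Slc25a33 at 0.49 (0.192), the coenzyme A carrier Slc25a42 at 0.44 (0.145) and Slc25a16 at -0.19 (0.526).

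Of the 3 measured carriers of di- and tricarboxylates, 1 rose (33.3%, against 17.3% of all genes). Slc25a1 exports citrate, the source of cytosolic acetyl-CoA. It read 9.25 and 9.56 on the MN1 arrays, 8.38 and 8.28 on those of MN1VP16 and 8.24 and 7.86 on those of Gr1Mac. The MN1 arrays stood apart from all 4 others, and MN1VP16 lay just above Gr1Mac. MN1 was 2.55-fold over Gr1Mac (95% interval 1.81 to 3.60, limma adjusted p = 0.00543). Slc25a10, the dicarboxylate carrier, read 8.06 and 8.02 on the MN1 arrays, 8.22 and 8.23 on those of MN1VP16 and 8.38 and 7.84 on those of Gr1Mac, so that Gr1Mac spanned both other groups. Slc25a11, the oxoglutarate-malate exchanger, read 10.03 and 9.96 on the MN1 arrays, 10.24 and 9.94 on those of MN1VP16 and 10.38 and 10.34 on those of Gr1Mac. Its MN1 mean was 0.36 log2 units under that of Gr1Mac, with a 95% interval from -0.78 to 0.05.

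Carriers of amino acids and glutathione rose in 1 of 11 (9.09%, against 17.3% of all genes). Slc25a15, which exchanges ornithine and citrulline, read 8.20 and 7.99 on the MN1 arrays, 7.63 and 6.82 on those of MN1VP16 and 6.10 and 5.42 on those of Gr1Mac. The groups were stepped without overlap, and Gr1Mac array 2 lay under the background guide. With readings under the guide set to it, MN1 was 4.36-fold over Gr1Mac. As measured MN1 was 5.04-fold over Gr1Mac, with a 95% interval from 2.82 to 9.01 (limma adjusted p = 0.00512). Its other probe set read at most 3.94 on every array. Slc25a13, an aspartate-glutamate carrier of the malate-aspartate shuttle, read 7.61 and 7.54 on the MN1 arrays, 7.11 and 7.51 on those of MN1VP16 and 7.02 and 6.28 on those of Gr1Mac. MN1 lay above Gr1Mac by 0.93 log2 units, just short of the threshold (limma adjusted p = 0.0551). Its close relative Slc25a12 read 10.53 and 10.35 on the MN1 arrays, 10.61 and 10.46 on those of MN1VP16 and 10.74 and 10.37 on those of Gr1Mac. All 3 groups overlapped, and the 95% interval of the difference between MN1 and Gr1Mac ran from -0.58 to 0.35.

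Slc25a38 brings glycine into mitochondria for the first step of haem synthesis. It read 9.01 and 9.45 on the MN1 arrays, 8.79 and 8.25 on those of MN1VP16 and 8.99 and 8.82 on those of Gr1Mac. MN1 and Gr1Mac were 0.32 log2 units apart (limma adjusted p = 0.404), while the MN1VP16 arrays were the lowest of the series. Slc25a39, a glutathione carrier, read 12.05 and 12.52 on the MN1 arrays, 11.52 and 11.86 on those of MN1VP16 and 12.10 and 11.37 on those of Gr1Mac. Gr1Mac array 1 lay within the MN1 range, and the difference of 0.55 did not pass (limma adjusted p = 0.237). Its other probe sets above the background guide were higher in MN1 by 0.73, 0.64 and 0.85 log2 units. On those the MN1 and Gr1Mac arrays did not overlap. Slc25a40, a relative of Slc25a39, differed by 0.20. Slc25a22, a glutamate carrier, was 0.24 log2 units higher in MN1, and the branched-chain amino acid carrier Slc25a44 0.44 lower (limma adjusted p = 0.115). A second Slc25a44 probe set above the background guide differed by -0.16. For Slc25a29, a carrier of basic amino acids, the probe set used differed by -0.29 (limma adjusted p = 0.375), while 3 other probe sets differed by -0.71 to -0.82 and the remaining one was under the background guide in MN1. With the mean of all its probe sets Slc25a29 was called lower in MN1. Slc25a2 and Slc25a18 did not rise above the background guide.

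The iron carriers read lower in MN1 cells than in Gr1Mac cells, by differences that did not pass, while 8 of 10 erythroid markers were called higher. Slc25a37, mitoferrin 1, the iron importer of red cell precursors, read 9.52 and 9.51 on the MN1 arrays, 9.15 and 10.04 on those of MN1VP16 and 10.40 and 10.47 on those of Gr1Mac. Both Gr1Mac arrays were above all others, by 0.92 log2 units over the MN1 mean (limma adjusted p = 0.0643). Limma called it lower in MN1 when the fit held only the MN1 and Gr1Mac groups. Slc25a28, mitoferrin 2, the importer of other cells, read 9.70 and 9.49 on the MN1 arrays, 9.75 and 9.78 on those of MN1VP16 and 10.39 and 9.92 on those of Gr1Mac. Gr1Mac was again above the rest, with MN1 lower by -0.56 log2 units (limma adjusted p = 0.0950). Limma called Slc25a28 lower in MN1 without Gr1Mac array 2 or with the Xist split as a block, which leave Gr1Mac array 1 alone. In the fit of all arrays limma called 0 iron carriers in any comparison, and both had an unadjusted p under 0.05 in MN1 against Gr1Mac.

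Slc25a20, which brings in acylcarnitines for fatty acid oxidation, read 10.19 and 10.37 on the MN1 arrays, 10.36 and 9.97 on those of MN1VP16 and 10.23 and 10.71 on those of Gr1Mac. The groups overlapped, and the interval of the difference between MN1 and Gr1Mac ran from -0.76 to 0.39. Of the relatives of the uncoupling proteins, Slc25a14 was 0.53 log2 units higher in MN1 (limma adjusted p = 0.0554) and Slc25a30 0.45 lower (0.202). A second Slc25a30 probe set above the background guide differed by 0.04. Slc25a27 stayed under the background guide in its group means.

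Among the members whose substrate is less settled, 2 of 8 rose in MN1 over Gr1Mac (25%, against 17.3% of all genes). In this group 1 fell (12.5%, against 12.0% of all genes). Slc25a53 read 6.94 and 7.09 on the MN1 arrays, 6.42 and 6.60 on those of MN1VP16 and 5.63 and 5.85 on those of Gr1Mac. Its groups were stepped without overlap. With readings under the guide set to it, MN1 was 2.26-fold over Gr1Mac. As measured MN1 was 2.43-fold over Gr1Mac, with a 95% interval from 1.82 to 3.24 (limma adjusted p = 0.00394). A second Slc25a53 probe set showed 0.95 log2 units in the same direction. Slc25a47, known from liver, read 7.26 and 7.08 on the MN1 arrays, 6.83 and 6.79 on those of MN1VP16 and 6.65 and 6.50 on those of Gr1Mac, with MN1 1.51-fold over Gr1Mac (limma adjusted p = 0.0356). The latter call was kept without Gr1Mac array 1 and lost without any other array (limma adjusted p from 0.0619 without an MN1VP16 array to 0.196 without MN1 array 1). Slc25a45 read 9.31 and 8.84 on the MN1 arrays, 10.22 and 10.19 on those of MN1VP16 and 10.67 and 10.27 on those of Gr1Mac. The MN1 arrays stood alone at the low end, and the MN1VP16 arrays lay just under those of Gr1Mac. MN1 was 2.63-fold lower than Gr1Mac (95% interval 1.79 to 3.88, limma adjusted p = 0.00698). Slc25a46, a member found in the outer membrane, was 0.47 log2 units higher in MN1 (limma adjusted p = 0.0577), but its second probe set differed by 0.04.

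**Figure D3:**
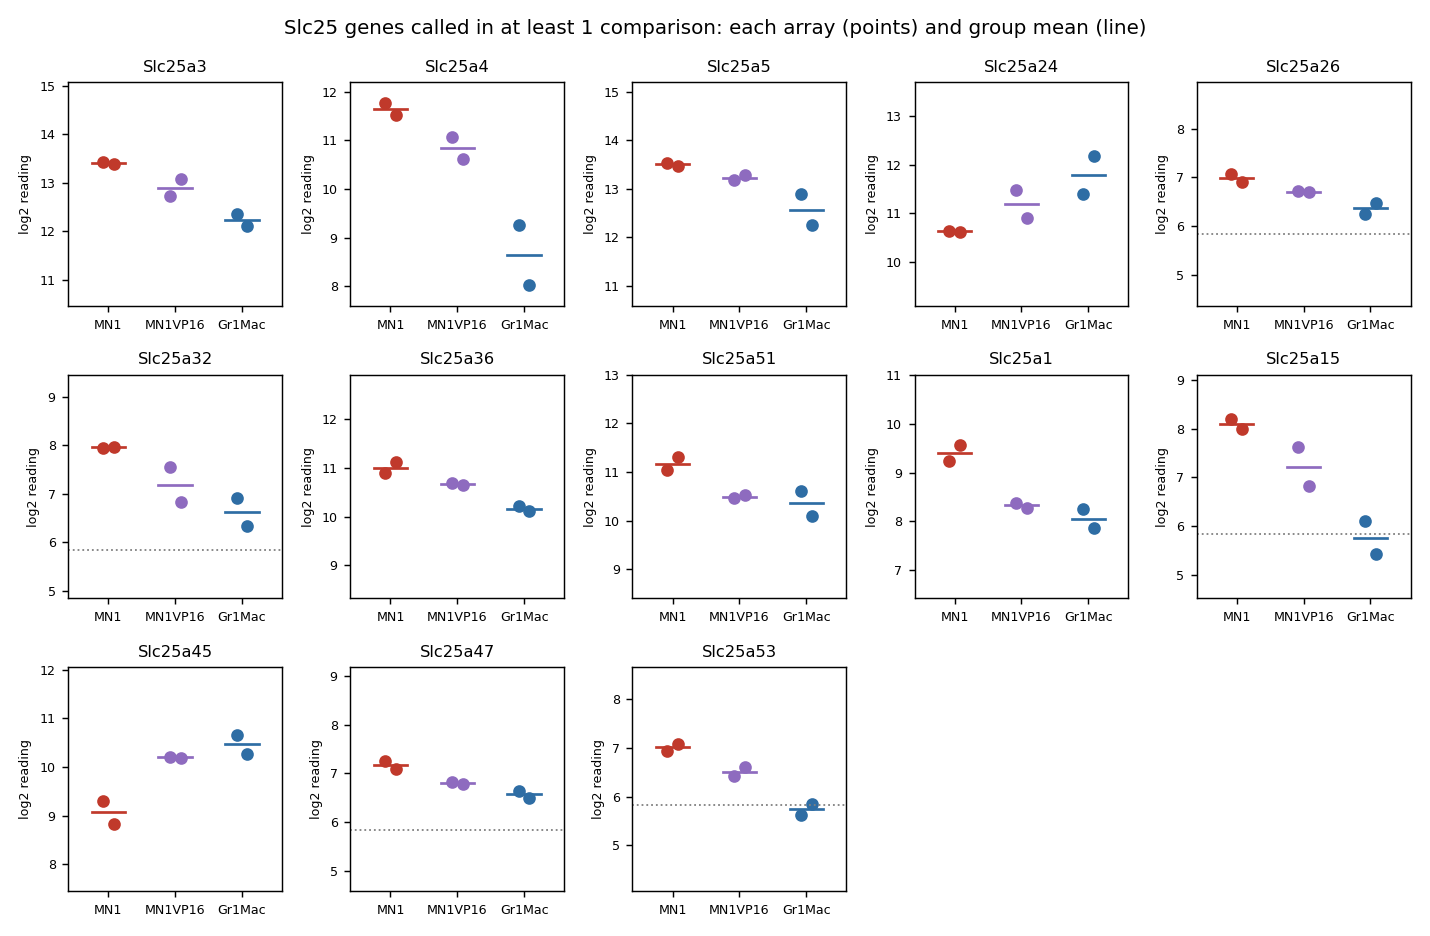
Log2 readings (vertical axes, all spanning the same number of log2 units) of the 13 Slc25 genes called in at least 1 comparison; points are arrays, lines group means (n = 2), and the dotted line is the background guide at 5.84 where it falls in range. MN1 is the highest group in 11 panels and the lowest in those of Slc25a24 and Slc25a45, and the Gr1Mac points of Slc25a4 are the farthest apart.

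In MN1VP16 cells compared with Gr1Mac cells, Slc25a4 was the one carrier that passed, and it was higher in MN1VP16. Its MN1VP16 mean was 10.83 ± 0.32 (SD, n = 2) against 8.64 ± 0.88 in Gr1Mac, a 4.57-fold difference with a 95% interval from 2.26 to 9.23 (limma adjusted p = 0.0410). Limma thus called 1 of 44 members higher and 0 lower, where 5.77% of all genes were called, 3.66% higher and 2.11% lower. At an unadjusted p under 0.05 there were 6 members higher (13.6%) and 3 lower (6.82%), against 13.4% and 10.3% of all genes. Beside Slc25a4 the higher ones included Slc25a53 and Slc25a15, both with Gr1Mac means under the background guide. With readings under the guide set to it, they were 1.59-fold and 2.38-fold higher. Their 95% intervals as measured were 1.28 to 2.28 and 1.54 to 4.92. The others were Slc25a3 (0.67 log2 units higher), Slc25a36 (0.50 higher) and Slc25a5 (0.66 higher). A second probe set above the guide in at least 1 group differed by -0.0034 for Slc25a3, 0.20 for Slc25a36 and 1.01 for Slc25a53. The other Slc25a5 probe sets were higher by 0.48 to 1.25. Lower in MN1VP16 were Slc25a30 (-0.66), Slc25a37 (-0.84) and Slc25a44 (-0.48). A second probe set above the guide differed by -0.41 for Slc25a30 and by 0.13, the other way, for Slc25a44. For the probe sets used, limma adjusted p-values of the members beside Slc25a4 ran from 0.0574 for Slc25a53 to 0.171 for Slc25a44. The call on Slc25a4 held without Gr1Mac array 1 and was lost without any other array (limma adjusted p from 0.0799 without an MN1 array to 0.117 without MN1VP16 array 1). In the same comparison limma called 4 of 10 erythroid, 3 of 6 stem and progenitor and 2 of 5 mast cell, basophil and eosinophil markers higher, and 1 of 8 granulocyte and monocyte and 1 of 4 dendritic cell markers lower. Their part in the result was not tested. The arrays of MN1VP16 lay wholly above those of Gr1Mac in 14 members and wholly below in 11, against 24.8% and 25.2% of all genes, and the median difference of the members was 0.04 log2 units.

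Between MN1VP16 and MN1 cells the citrate carrier Slc25a1 passed, and it was lower in MN1VP16. Its readings of 8.38 and 8.28 against 9.25 and 9.56 put it 2.11-fold lower (95% interval 1.49 to 2.97, limma adjusted p = 0.0491). That call sat at the threshold and was lost without each array in turn (limma adjusted p from 0.0582 without either Gr1Mac array to 0.302 without MN1 array 2). In the same comparison 6 of 10 erythroid markers and 1 of 6 stem and progenitor markers were called lower, and 3 of 8 granulocyte and monocyte markers and 1 of 3 B cell markers higher; their part in the result was not tested. Limma called 1 of 44 members lower and 0 higher, where 3.85% of all genes were called, 2.70% lower and 1.15% higher. At an unadjusted p under 0.05 there were 9 members lower (20.5%) and 1 higher (2.27%), against 13.3% and 9.15% of all genes. The MN1VP16 arrays lay wholly above the MN1 arrays in 13 members and wholly below in 20, against 30.5% and 29.2% of all genes. The members' median difference was -0.14 log2 units, and that of all genes 0.03. Slc25a45 had the widest difference upwards, 1.13 log2 units higher in MN1VP16 (limma adjusted p = 0.0553). Slc25a33 was 0.98 lower (limma adjusted p = 0.0842): it read 7.54 and 8.04 in MN1 and 6.89 and 6.72 in MN1VP16. For the ADP/ATP carriers a difference was not shown, but the intervals were wide: from -1.82 to 0.21 log2 units for Slc25a4 and from -0.86 to 0.29 for Slc25a5. The comparisons of MN1 and of MN1VP16 with Gr1Mac share the Gr1Mac arrays, so their values stand side by side only.

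**Figure D4:**
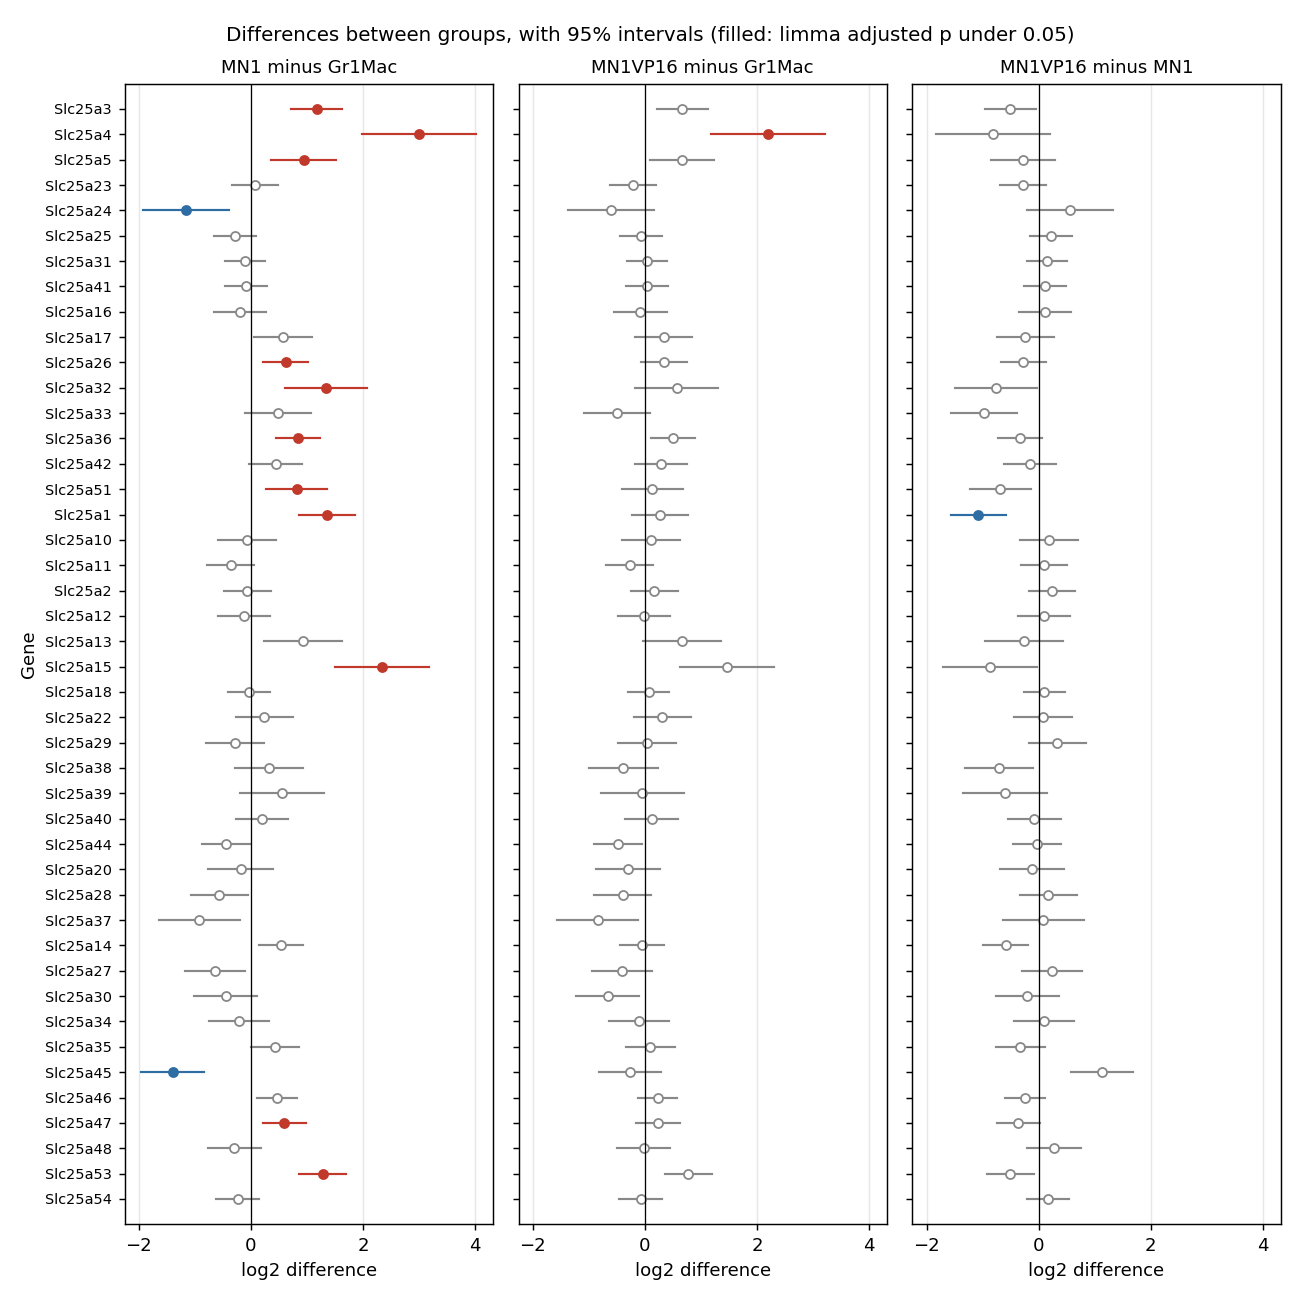
Log2 difference (horizontal axes, equal scales) of each of the 44 Slc25 genes between MN1 and Gr1Mac (left), MN1VP16 and Gr1Mac (middle), and MN1VP16 and MN1 (right), the first-named group minus the second; points are limma estimates, bars 95% intervals, and filled points passed an adjusted p of 0.05 (red higher, blue lower). There are 13 filled points in the first panel and 1 in each of the others, Slc25a4 and Slc25a1.

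The X-linked members can be set beside the Xist pattern. Of the 34 members with a RefSeq promoter entry, 3 lay on chromosome X: Slc25a5, Slc25a14 and Slc25a53. Gr1Mac array 1, which was high in Xist, and Gr1Mac array 2, which was low, read 12.89 and 12.25 for Slc25a5, 7.73 and 7.71 for Slc25a14, and 5.63 and 5.85 for Slc25a53. The array with high Xist was thus the higher for Slc25a5 and the lower for Slc25a53, while Slc25a14 read nearly the same on both. The median absolute difference between these arrays over all members was 0.32 log2 units. Between MN1VP16 and MN1 these genes differed by -0.28, -0.59 and -0.51 log2 units, and none passed (limma adjusted p = 0.560, 0.106 and 0.154). A second Slc25a53 probe set of similar brightness differed there by 0.06, the other way. In that comparison the construct and the Xist pattern cannot be told apart.

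Promoters are shown for the members in which a script found the letters CACGTG, the E-box bound by Myc and related factors, before the transcript start. Each RefSeq entry (build GRCm38.p6) held 250 bases before and 50 after a start, and 34 members had at least 1 entry. The E-box, which reads the same on both strands, was in an entry of 7 of these 34 members (20.6%), against 8.09% of all genes with an entry. Of the 11 members called higher in MN1 than in Gr1Mac, 8 had an entry and 3 of those held an E-box, against 4 among 26 other members with an entry. The letters CCGGAAG, the core bound by ETS factors, searched on both strands, were also in entries of 7 members (20.6%, against 9.93% of all genes). These included Slc25a4 and Slc25a3, and no member held both motifs. The palindromic motif of NRF1, a regulator of mitochondrial genes, was searched as well and was in 0 members and 1.07% of all genes. A match is a description of the letters and not evidence of binding. The stretches below run 5′ to 3′ on the gene's strand, end at the latest at the start, and have the E-box in capitals. The first 3 belong to genes that rose in MN1 over Gr1Mac, and the others to genes that did not pass.
Slc25a1, chr16:17928423-17928469, minus strand: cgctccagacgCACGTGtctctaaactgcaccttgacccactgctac
Slc25a15, chr8:22398319-22398384, minus strand: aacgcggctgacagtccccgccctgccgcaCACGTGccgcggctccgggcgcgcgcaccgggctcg
Slc25a36, chr9:97111193-97111258, minus strand: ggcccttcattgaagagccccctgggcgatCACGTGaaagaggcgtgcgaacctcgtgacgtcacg
Slc25a13, chr6:6217263-6217328, minus strand: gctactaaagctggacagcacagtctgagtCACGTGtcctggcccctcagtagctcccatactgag
Slc25a33, chr4:149774268-149774305, minus strand: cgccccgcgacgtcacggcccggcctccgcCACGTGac
Slc25a14, chrX:48623364-48623429, plus strand: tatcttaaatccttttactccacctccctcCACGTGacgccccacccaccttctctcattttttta

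In these stretches the E-box starts 239 bases before the start in Slc25a1, 77 in Slc25a15, 187 in Slc25a36, 125 in Slc25a13 and 8 in Slc25a33. The seventh gene with an E-box, Slc25a31, read under the background guide on all arrays and is not shown.

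Carriers are made in the cytosol and reach the inner membrane through the TOM receptors and pore, the small TIM chaperones and the TIM22 insertase. Of 14 measured genes of this route 8 rose in MN1 over Gr1Mac (57.1%, against 17.3% of all genes) and 1 fell (7.14%, against 12.0%), with a median of 1.06 log2 units. Timm8a1, a small TIM chaperone, read 10.75 and 10.90 on the MN1 arrays, 9.68 and 9.93 on those of MN1VP16 and 8.22 and 7.76 on those of Gr1Mac. It was 7.14-fold higher in MN1 and 3.52-fold higher in MN1VP16 than in Gr1Mac (limma adjusted p = 0.00123 and 0.0160). Timm10, another small TIM, was 6.11-fold higher in MN1 (limma adjusted p = 0.00356). Tomm70a, the receptor for carrier precursors, rose 3.99-fold in MN1 and 2.54-fold in MN1VP16, and Tomm20 2.76-fold and 1.92-fold. Timm10b, a small TIM of the insertase, was the one that fell, 2.02-fold in MN1 (limma adjusted p = 0.0348). Timm22, the insertase itself, was 0.54 log2 units higher in MN1 and did not pass (limma adjusted p = 0.0548). In MN1VP16 against Gr1Mac 3 of the 14 genes rose (21.4%, against 3.66% of all genes). Between MN1VP16 and MN1 limma called 0 of them, and 6 were lower at an unadjusted p under 0.05 (42.9%, against 13.3% of all genes).

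**Figure D5:**
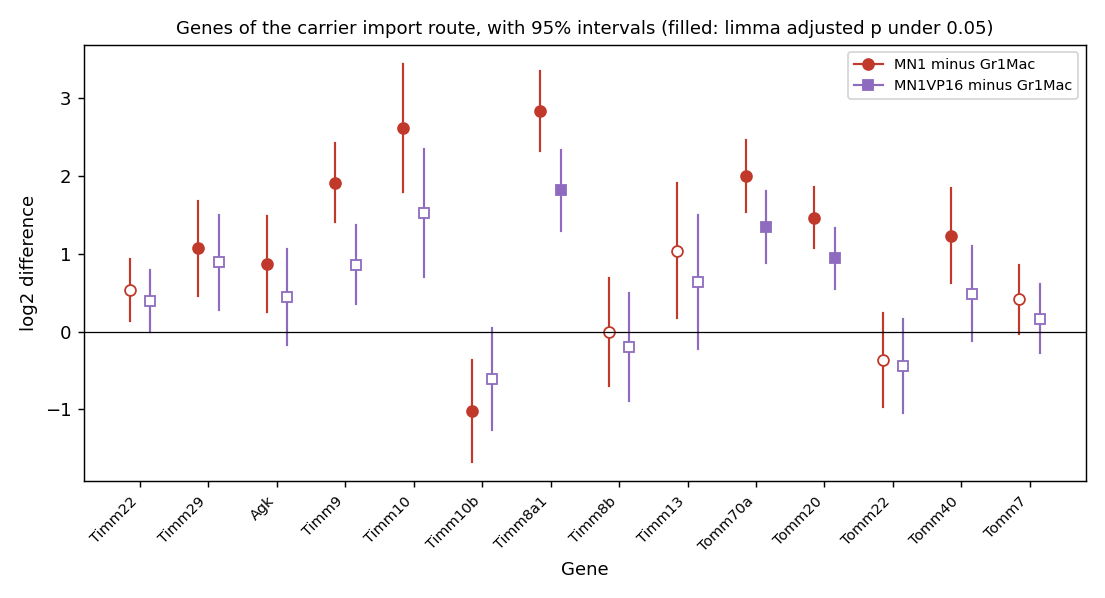
Log2 difference from Gr1Mac (vertical axis) for the 14 measured genes of the carrier import route (horizontal axis), in MN1 (red circles) and MN1VP16 (purple squares), with 95% intervals; filled points passed a limma adjusted p of 0.05. Timm8a1, Tomm70a and Tomm20 are filled in both colours, and Timm10b is the filled point below 0.

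Enzymes that make or use what the carriers move were called higher in 11 and lower in 2 of 32 measured genes in MN1 against Gr1Mac, with a median of 0.30 log2 units. These are 34.4% and 6.25%, against 17.3% and 12.0% of all genes. Beside the ornithine carrier, Odc1, which turns ornithine into putrescine, was 10.6-fold higher (limma adjusted p = 0.00137), and Aldh18a1, which starts proline and ornithine synthesis, 15.8-fold higher (0.00129). Beside the folate carrier, the folate enzyme Mthfd1 was 14.4-fold and the mitochondrial serine hydroxymethyltransferase Shmt2 11.8-fold higher (limma adjusted p = 0.00117 and 0.00180). Mthfd2, the mitochondrial folate dehydrogenase, differed by 0.19 log2 units (limma adjusted p = 0.445). Beside the citrate carrier, neither citrate synthase Cs (0.52 log2 units higher, limma adjusted p = 0.0694) nor Acly, which splits exported citrate (0.28 lower, 0.236), passed. In the malate-aspartate shuttle Mdh1 was 1.68-fold higher and the aminotransferase Got1 3.03-fold lower (limma adjusted p = 0.0364 and 0.0145). Of the haem and iron-sulphur enzymes Cpox, Nfs1 and Ppox, 3 of 7, rose (42.9%, against 17.3% of all genes). At an unadjusted p under 0.05, 4 of the 7 were higher and 2 lower (57.1% and 28.6%, against 22.1% and 17.7% of all genes). The part of the higher erythroid markers given above was not tested. Of the enzymes for fatty acids Hadhb rose 2.34-fold and Cpt1a, which makes the acylcarnitine that Slc25a20 takes in, fell 1.75-fold in MN1. In MN1VP16 against Gr1Mac 4 of the 32 enzymes rose (Aldh18a1, Mthfd1, Odc1 and Shmt2) and 1 fell (Got1), which is 12.5% and 3.12%, against 3.66% and 2.11% of all genes. In MN1VP16 against MN1 Mthfd1 and Ppox fell (6.25%, against 2.70% of all genes), and limma called 0 enzymes higher. At an unadjusted p under 0.05, 11 enzymes were lower (34.4%) and 3 higher (9.4%), against 13.3% and 9.15% of all genes.

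Mitochondrial transporters outside the family also differed between MN1 and Gr1Mac, with 5 of 11 measured genes higher (45.5%, against 17.3% of all genes) and 1 lower (9.09%, against 12.0%). Abcb10, a transporter of red cell precursors that works with mitoferrin 1, read 9.59 and 9.82 on the MN1 arrays, 8.49 and 7.47 on those of MN1VP16 and 7.10 and 6.72 on those of Gr1Mac. It was 6.94-fold higher in MN1 (limma adjusted p = 0.00333), whereas Slc25a37 was not. The serine transporter Sfxn1 was 2.61-fold higher (limma adjusted p = 0.00540), and the outer membrane channels Vdac1 and Vdac3 were 2.01-fold and 2.00-fold higher. Sfxn5 was 12.1-fold lower in MN1 and 5.99-fold lower in MN1VP16 than in Gr1Mac (limma adjusted p = 0.00242 and 0.0265). Of the relatives of the family that carry other names, Ucp3 was called lower in MN1, with its MN1 mean under the background guide, and Ucp1, Mtch1 and Mtch2 were not called in any comparison. Ucp2 was named on no single-gene probe set.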

How the data were processed

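Expression was measured on 6 Affymetrix mouse arrays, 2 in each of 3 groups. Per the labels' protocols RNA came from a TRIZOL extraction and was amplified from the poly(A) end. The deposited log2 values per probe set were computed by RMA according to the submitters' processing notes. The version of RMA and a genome build were not given in the sources used here. For arrays, their number limits the precision.

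Of 45101 lines, 64 were control features. GEO's platform annotation tied 34945 probe sets to 1 gene, 932 to several and 9160 to none, and only the first kind was used. Each gene was read from its brightest probe set on average. A RefSeq table matched 18031 gene numbers and changed 0 symbols.

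limma 3.58.1 (R 4.3.3; lmFit, eBayes) was fitted to all 6 arrays with group as the term, with 3 residual degrees of freedom and 3.03 from the prior. Adjustment was by Benjamini-Hochberg over 18193 genes in each of 3 contrasts, with calls at an adjusted p under 0.05. Intervals are 95% from the moderated statistic, and a fold is 2 to the power of the log2 difference. Where the dimmer group lay at or under 5.84, a fold is given with arrays of that group reading under 5.84 set to 5.84 before averaging. Such a fold is not the lower end of the 95% interval, which comes from the readings as measured.

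Members, gene lists, markers and the background guide were chosen with earlier results of these data known. Values on every array were to be given for a set of well-known members and the called members with the largest differences. The other called members, Slc25a33, Tomm70a, Tomm20, Timm22, Vdac1 and Vdac3 were added after their values were seen. Other genes come from the lists, as the most changed of a list or as partners of a carrier. The alternatives were other probe sets, no dim genes, median centring, another prior, fewer groups or arrays, and the array number, the Xist split or the control feature split as a block. The array numbers did not pair the arrays.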

Additional observations from a re-analysis of the deposited data

How the results depend on the processing

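The 11 Slc25 genes called higher in MN1 than Gr1Mac became 6 without probe sets ending in _x_at, _s_at or _a_at. Of the 11, Slc25a26 and Slc25a47 had no probe set left there and were not tested. The 11 became 7 with the Xist split as a block and 1 with the control feature split as a block. They became 5 to 12 when an array was left out. The 12, without Gr1Mac array 1, included Slc25a13 and Slc25a17, which were not among the 11. The 2 called lower became 1 with the replicate block, 0 with the control feature split and 1 to 3 when an array was left out. The 1 called higher in MN1VP16 than Gr1Mac became 2 without the dimmest 40% of genes, with the replicate block or with the Xist split, 0 with median centring, only the 2 groups compared or the control feature split, and 0 to 2 when an array was left out. Without those endings, or with the mean of all probe sets of a gene, Slc25a5 was called there in place of Slc25a4. The 0 called higher in MN1VP16 than MN1 became 1 (Slc25a45) without the dimmest 40%. The 1 called lower became 0 with median centring, with an intensity trend and robust prior, with only the 2 groups compared, with the replicate block, with the Xist split, with the control feature split, and without each array in turn. Without the endings named above, the difference between MN1 and Gr1Mac turned to -0.25 for Slc25a3 and -0.030 for Slc25a4, and that between MN1VP16 and Gr1Mac to -0.17 for Slc25a4. The Slc25a4 probe set then used lies under the background guide on all arrays. The cause of the other changes was not tested.

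The array numbers come from the labels and did not pair the arrays: deviations of equal numbers correlated at -0.05, -0.05 and 0.08 over genes. With the replicate block 8 members were called higher in MN1 than Gr1Mac. With 2 arrays a group, either block by a split rests some contrasts on single arrays. Leaving out either array of the group outside a contrast gives the same fit as only the 2 groups compared. These alternatives are therefore not separate checks of that contrast.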
